A study of Homo sapiens and Mus musculus with 12 samples.

Results

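The data described here are the sites of HA-tagged mouse Spdef in FC1245 cells, mapped by CUT&RUN. In this assay an antibody directs a nuclease to a chromatin protein, and the released DNA fragments are sequenced. All peaks of the deposited mouse list on the assembled nuclear chromosomes were taken, which gave 5717 of 5719 peaks. Left out were the peak of 15893 bp on the mitochondrial genome and a peak of 2127 bp on an unplaced sequence. The 3 lists of the series hold 19160 peaks on such chromosomes, and the other two are 2774 human SPDEF peaks and 10669 human GATA6 peaks. FC1245 is a 2-dimensional culture of pancreatic ductal adenocarcinoma (PDA) from a mouse of strain C57/Bl6, whose genotype includes Trp53LSLR172H/+ and Pdx1-Cre. In such mice mutant Trp53 is switched on by Cre in the pancreatic lineage. The mouse list stands for 3 libraries made with an antibody against the HA tag, and 1 further mouse library was made with control IgG. All 4 mouse libraries have this strain and genotype, and their titles give the tagged factor for each. The human lists were made in HPAF-II cells, an established PDA line carrying HA-tagged SPDEF. The promoter of the tagged factor, its level and whether the cells are 1 clone are not given in the sources used here.

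SPDEF is a transcription factor of the ETS family, whose members bind DNA through a winged-helix domain that reads a short GGA core. Among ETS factors it is known for favouring GGAT over GGAA. It drives the maturation of goblet and other mucus-secreting epithelial cells in the gut and airway, and mucus genes are also a feature of the classical subtype of PDA. The series asked where it binds in human and mouse PDA cells. A tagged factor is seen wherever the tagged protein sits, which need not match the sites of the endogenous protein.

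The list gives a chromosome, a start and an end for each peak, in mm10 coordinates. It has no height, score or p-value and no value for a single library, so the spread between the 3 libraries and the sequencing depth are unknown. No comparison here carries a p-value. Intervals on shares are 95% Wilson intervals, and intervals on ratios are exact 95% Poisson intervals. They cover counting error only, and since peaks cluster they are too narrow. Gene coordinates of mm10 were not used here, so sites are placed by chromosome, position and cytogenetic band and not by gene. Whether the cells carry peaks at ductal marker genes was not analysed here for the same reason.

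The mouse Spdef sites were mostly under 1000 bp wide, with a long tail of broad sites. The 5717 peaks covered 3197.1 kb. The median width was 436 bp (exact binomial 95% interval of the median 426 to 448), and the middle 50% of peaks lay between 292 and 728 bp. The lowest 10% were at most 201 bp and the highest 10% at least 1071 bp. The mean was 559 bp with an SD of 405 bp over peaks.

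Broad peaks made up a small share of the sites and a larger share of the bound length. Peaks of at least 1000 bp numbered 685 (11.98%, 11.2 to 12.8) and held 29.9% of the covered bases. Within them, 55 peaks reached 2000 bp (0.962%, 0.740 to 1.25) and held 4.31% of the covered bases. At the other end, 186 peaks were narrower than 100 bp (3.25%, 2.82 to 3.75), with 31 under 20 bp and 4 of 1 bp. Together these narrow peaks held 0.295% of the covered bases. The commonest classes were 300 to under 500 bp with 1735 peaks and 500 to under 1000 bp with 1771.

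Beside the human SPDEF list, the mouse list had more of its peaks in the broad classes. In the human list 63 of 2774 peaks reached 1000 bp (2.27%, 1.78 to 2.90), and the quartiles were 208 and 391 bp. In the human GATA6 list 976 of 10669 did so (9.15%, 8.62 to 9.71), with quartiles of 235 and 641 bp. The species, the cell line, the number of sites differ between the lists and the depth may, and the cause of the difference was not tested. With 1 list per target there is no replicate spread to set it against.

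**Figure D1:**
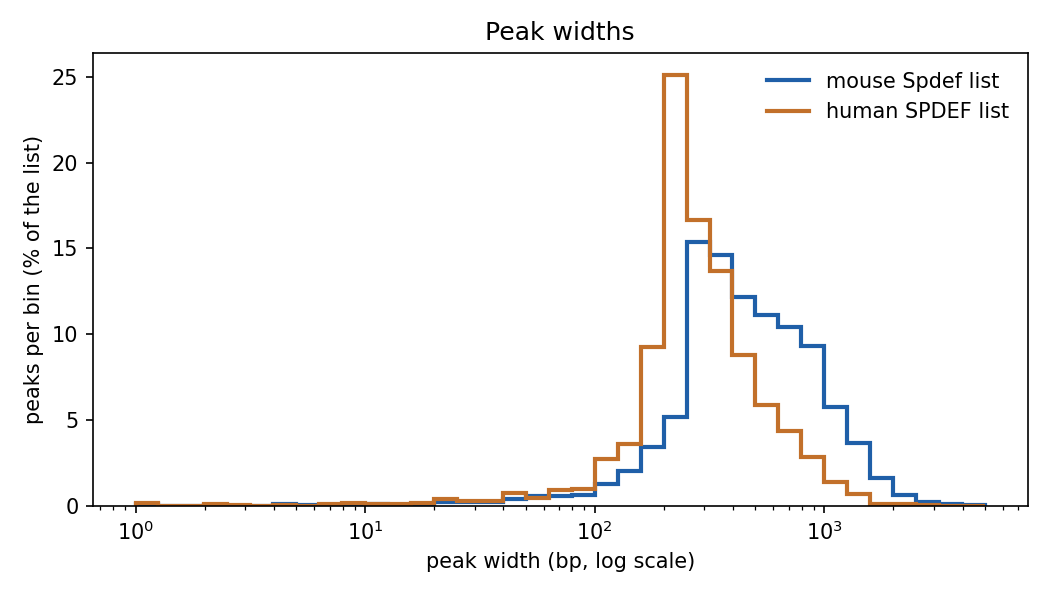
Distribution of peak width (bp, log scale) in the mouse Spdef list of 5717 peaks and the human SPDEF list of 2774, as percent of each list per bin. The human list has its highest bin at about 200 to 251 bp (25.1% of peaks), while the mouse list rises at about 251 bp and falls off slowly to beyond 1000 bp.

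The broadest site of the list was a peak of 4442 bp in 1qA5 (chromosome 1, 24611649 to 24616090). Its nearest neighbour was 503.2 kb away, and it lay in a band of the darkest Giemsa stain. No filter for regions of artefact signal was applied here, and whether this peak marks bound Spdef was not tested. The next was a peak of 4181 bp in 3qF1 (chromosome 3, 88138039 to 88142219), with the nearest peak 35.1 kb away. The third, of 3844 bp, lay in 1qD (chromosome 1, 91239854 to 91243697) with a second peak 4.43 kb from it. The fourth, of 3519 bp, lay in 3qA3 (chromosome 3, 27152852 to 27156370) and stood alone.

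The broadest sites were spread over many places, and some bands held several. In 4qB1 a peak of 3415 bp (chromosome 4, 45964427 to 45967841) was followed after 1734 bp by one of 2518 bp (45969576 to 45972093). Both belong to the 20 widest. Another broad peak of that band, of 3321 bp (47090774 to 47094094), had no other peak within 199.6 kb. In 11qE2, on distal chromosome 11, 3 of the 20 lay within 1.12 Mb. They were 2675 bp (116700929 to 116703603), 2599 bp (116771659 to 116774257) and 2888 bp wide (117822885 to 117825772).

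Of the 20 widest peaks, 6 lay on chromosome 3, 4 on chromosome 11 and 3 on chromosome 4. Over the whole list of 5717 peaks these chromosomes held 426, 442 and 318. On chromosome 3 the others of the 20 were in 3qC (2719 bp), 3qE3 (2709 bp), 3qH1 (2599 bp) and 3qF1 (2523 bp). The 3qE3 peak (73667555 to 73670263) was the most isolated of the 20, with its nearest neighbour 1886 kb away. The remaining members were in 12qD2 (3385 bp), 12qF1 (2944 bp), 15qF2 (2931 bp), 16qB2 (2731 bp), 15qE2 (2668 bp) and 11qB4 (2659 bp). The 20 peaks together covered 61.3 kb, or 1.92% of all covered bases. There was no break at the twentieth place, where the peak had 2518 bp and the next one 2488 bp. A cluster is defined here as 3 or more peaks joined by gaps of at most 0.0125 Mb, called the joining distance. By that rule 10 of the 20 stood alone, 5 were in a pair and 5 in a cluster. Over the whole list 62.0% of peaks stood alone, 23.3% were in a pair and 14.7% in a cluster.

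Spacing showed that the sites were far from evenly spread. If the peaks stood at equal distances, 1 would be met every 460.7 kb of the chromosomes that hold any. Random placement would also bring many peaks closer than that, and its value was not computed here. The median distance from the edge of a peak to the nearest other peak was 30.8 kb, with quartiles of 3.19 and 123.9 kb. Another peak lay within the joining distance of clusters for 2175 peaks (38.04%, 36.8 to 39.3) and within 100 kb for 4069 (71.2%, 70.0 to 72.3). At the far end, 171 peaks had no other within 1 Mb (2.99%).

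The gaps from each peak to the next fell into 2 groups. A first group was narrow, with 220 of 5697 gaps between about 251 and 398 bp (3.86%). The count then dropped to 121 gaps up to about 631 bp and to 100 in each bin on either side of 1 kb. Beyond that it rose steadily to a broad maximum of 495 gaps between about 158 and 251 kb (8.69%). Gaps of up to 100 bp were rare, at 25. The human SPDEF list had 95 of 2750 gaps between about 251 and 398 bp (3.45%), and 81 in the bin below it (2.95%), where the mouse list had 37 (0.649%).

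**Figure D2:**
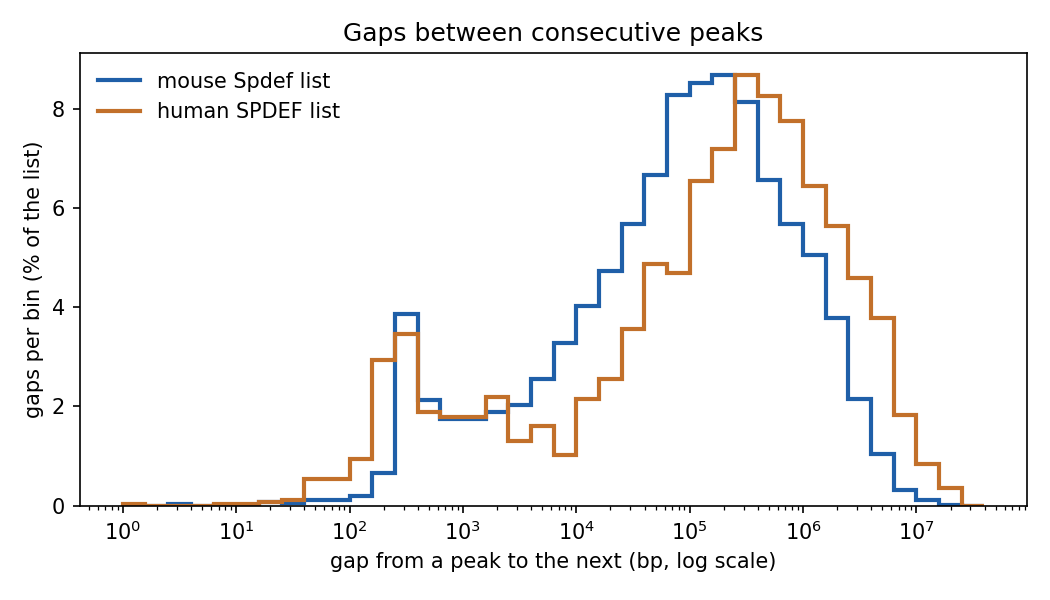
Gap from a peak to the next on the same chromosome (bp, log scale) in the mouse Spdef list (5697 gaps) and the human SPDEF list (2750 gaps), as percent of gaps per bin. Each list shows a small maximum at about 251 to 398 bp and a broad one at 100 kb or more, which lies at shorter gaps in the mouse list.

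Neighbouring sites often differed in width, whether close together or far apart. There were 514 consecutive peaks with a gap of at most 1 kb, at a median gap of 350.5 bp. The wider peak of such a pair had a median width of 554 bp and the narrower one 279 bp. In 264 of the 514 pairs the wider was at least 2 times as wide (51.4%, 47.05 to 55.7). Over all 5697 consecutive pairs this held for 2700 (47.4%, 46.1 to 48.7), and over gaps longer than 100 kb for 1306 of 2852 (45.8%, 43.97 to 47.6). In 79 pairs the narrower was under 100 bp. The wider partner came first along the chromosome in 246 pairs and second in 268.

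Narrow peaks had a close neighbour more often than others. Of the 186 peaks under 100 bp, 75 had another peak within 1 kb (40.3%, 33.5 to 47.5), against 974 of all 5717 (17.04%, 16.1 to 18.0). From 100 to under 200 bp the share was 24.9% (20.8 to 29.4), from 200 to under 300 bp 17.4% and from 500 to under 1000 bp 13.7% (12.1 to 15.3). At 2000 bp and more it was 21.8%, from 12 of 55 peaks, with an interval of 12.9 to 34.4 that includes the value of the whole list. In the human SPDEF list the share was 55 of 134 under 100 bp (41.0%, 33.1 to 49.5) against 22.7% over all its peaks (21.2 to 24.3). In the GATA6 list it was 165 of 319 (51.7%, 46.3 to 57.2) against 21.4% (20.7 to 22.2). Whether such peaks are fragments of the site beside them was not tested.

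**Figure D3:**
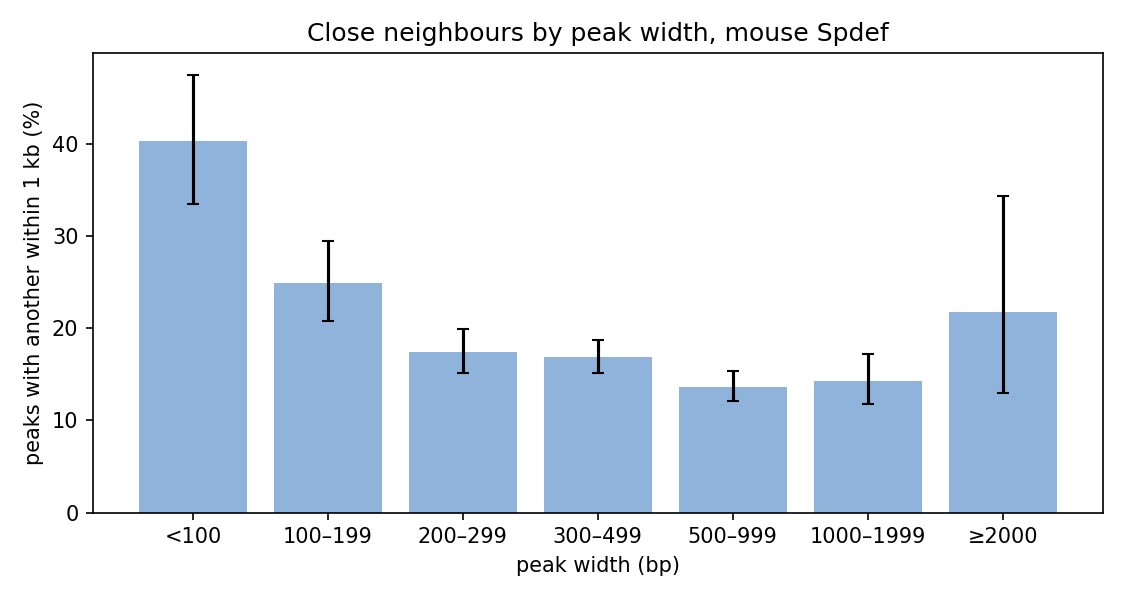
Share of mouse Spdef peaks with another peak within 1 kb (percent), by peak width (bp). Bars are shares over all peaks of a width class and lines are 95% Wilson intervals, for 186, 382, 958, 1735, 1771, 630 and 55 peaks from left to right, and the share falls from 40.3% under 100 bp to 13.7% at 500 to under 1000 bp.

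Groups of sites were small as a rule. Joining peaks over gaps up to the joining distance left 3542 single peaks (62.0%), 667 pairs and 229 clusters of 3 or more. The clusters held 841 peaks (14.7%, 13.8 to 15.7). Of the 229, 149 had 3 peaks, 53 had 4 and 27 had 5 or more. Their median span was 11.1 kb, from 0.795 to 44.0 kb, and at the median 18.8% of the span was covered by peaks. By the same rule the human SPDEF list had 81 clusters with 361 of its peaks (13.0%, 11.8 to 14.3), at a median span of 5.35 kb.

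Peaks in the larger clusters were broad more often. Of 182 peaks in clusters of 5 or more, 43 reached 1000 bp (23.6%, 18.04 to 30.3), against 398 of 3542 single peaks (11.2%, 10.2 to 12.3). The 2 largest clusters carried part of this. Without them the share was 28 of 150 (18.7%, 13.2 to 25.7). In clusters of 3 or 4 the share was 12.7% (10.4 to 15.5), and the median width of 446 bp (415 to 475) lay close to that of single peaks, 440.5 bp (426 to 454).

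The densest stretch of the genome for mouse Spdef lay in 6qB2.3. A cluster of 15 peaks (chromosome 6, 47652431 to 47686491) and one of 17 (47737306 to 47781326) stood 50.8 kb apart. Their 32 peaks fell within 128.9 kb and covered 29548 bp. No peak lay in the 50.8 kb between them, and the next peaks outside were 58.2 kb before and 32.02 kb after. No other cluster of the list had more than 8 peaks. Mouse chromosome 6 is known for a large cluster of transfer RNA genes. Whether it lies at these positions was not analysed here, since gene coordinates of mm10 were not used.

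Inside these clusters peaks of 1 kb and more were interspersed with narrower ones. Widths ran from 280 to 2219 bp with a median of 857.5 bp, almost 2 times that of the list. Of the 32 peaks, 15 reached 1000 bp, 8 in the cluster of 15 and 7 in the cluster of 17. The 2 widest, of 2157 bp (47743232 to 47745388) and 2219 bp (47747495 to 47749713), were neighbours in the second cluster. The 30 gaps within the clusters ran from 266 to 3485 bp with a median of 1739.5 bp. Of these, 12 were at most 1 kb and 18 longer. In the cluster of 15 all 4 gaps of at most 0.5 kb had the wider peak first, such as the peak of 1261 bp (47659256 to 47660516), followed after 461 bp by one of 487 bp. In the cluster of 17 this was so for 1 of 3 such gaps. There a peak of 280 bp (47751900 to 47752179) was followed after 270 bp by one of 1276 bp.

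**Figure D4:**
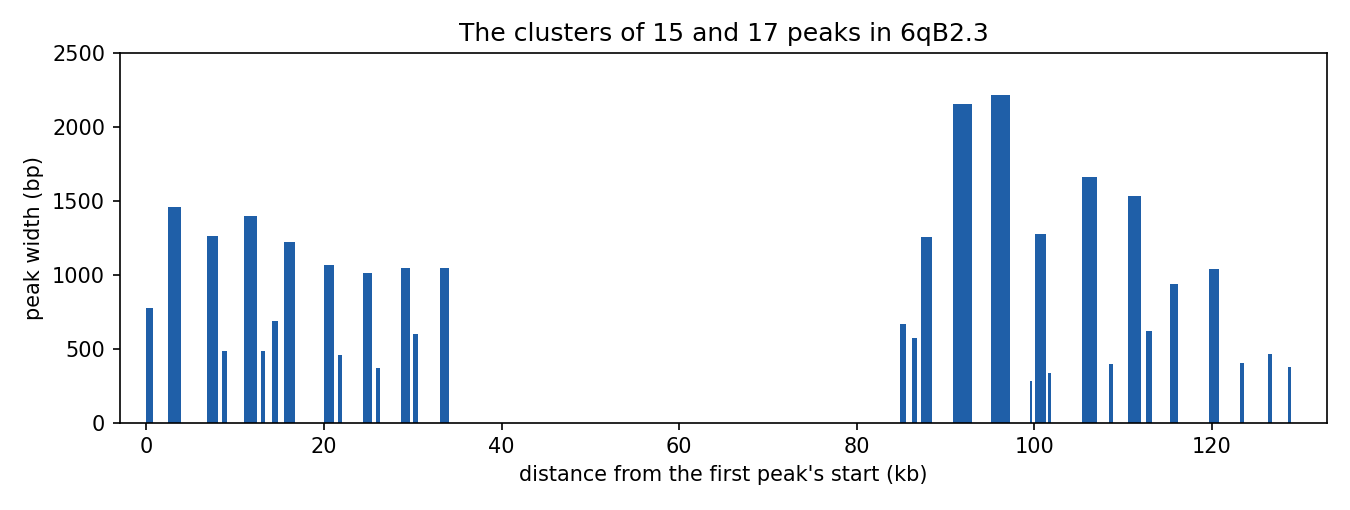
The 32 peaks of the clusters of 15 and 17 peaks in 6qB2.3, drawn to scale along the distance from the first peak's start (kb), with the height of each box giving its width (bp). The 15 boxes of 1010 to 2219 bp are interspersed with boxes of 280 to 939 bp, and 50.8 kb without a peak separate the clusters.

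The other clusters with the most peaks had 6 to 8. In 8qE2, 8 peaks (chromosome 8, 126825728 to 126853195) spanned 27.5 kb, and in 12qC2 8 peaks (chromosome 12, 69416610 to 69451141) spanned 34.5 kb. The peaks of 12qC2 were all of at least 508 bp, whereas those of 8qE2 went down to 247 bp. Clusters of 7 lay in 4qD3 (chromosome 4, 137696046 to 137706866), 15qD3 (chromosome 15, 76190018 to 76207444), 12qD2 (chromosome 12, 86878148 to 86896376), 15qF2 (chromosome 15, 101316131 to 101337483) and 3qF1 (chromosome 3, 90574495 to 90598667). The shortest of these was that of 4qD3, with 7 peaks of 63 to 1630 bp in 10.8 kb. Next, 9 clusters had 6 peaks, and the one of shortest span lay in 19qC2 (chromosome 19, 38025563 to 38039107), in 13.5 kb.

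By covered share the clusters of chromosome 6 again came first, with peaks over 39.2% and 36.8% of their spans. After them came a cluster of 5 in 12qD2 (chromosome 12, 86824071 to 86838998) at 32.9%. It starts with the sixth widest peak of the list, of 3385 bp, and its other 4 peaks were narrower, with a median over the 5 of 423 bp. It lies 39.15 kb before the 12qD2 cluster of 7 peaks, so 12 peaks stood within 72.3 kb there. Next came 19qC2 (30.2%), 4qD3 (27.9%), 15qD3 (27.1%), 14qB (24.97%, chromosome 14, 31929168 to 31947550), 3qF1 (24.1%, chromosome 3, 88490958 to 88513536), the 12qD2 cluster of 7 (23.5%) and 10qC1 (21.5%, chromosome 10, 80148018 to 80168463). Of the 10 clusters named by number of peaks and the 10 named by covered share, 6 were the same, a number that depends on which of the clusters of 6 peaks is the last named.

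Chromosomes differed in how many clusters they held. Clusters of 3 or more took 23.2% of the peaks on chromosome 15 (19.1 to 27.8) and 22.98% on chromosome 6 (19.04 to 27.4). The share over the whole list was 14.7%. On chromosome 6, 32 of the 88 peaks in clusters lay in the large neighbouring clusters of 6qB2.3. The share of chromosome 6 without those clusters was not computed. On chromosome 17 clusters took 6.81% (4.02 to 11.3), and on chromosome X 0 of 116 peaks were in a cluster. Chromosome X had 0.678 peaks per Mb, against 2.17 over the chromosomes that hold peaks. A fixed joining distance joins fewer peaks where they are sparse, and the part of density in these shares was not tested. Median widths of autosomes ran from 387 bp on chromosome 17 (354 to 451) to 486.5 bp on chromosome 3 (440 to 530). Most intervals overlapped, but that of chromosome 2, at 397 bp (368 to 435), lay below that of chromosome 3. On chromosome X the median was 365 bp (333 to 451).

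The number of peaks did not follow chromosome length. Chromosome 19 held 282 peaks against 128.9 given by its length (ratio 2.19, 1.94 to 2.46), chromosome 11 442 against 256.1 (1.73, 1.57 to 1.89) and chromosome 15 354 against 218.2 (1.62, 1.457 to 1.8002). Chromosomes 8 (1.39), 3 (1.27), 6 (1.22) and 12 (1.21) followed. Without the 32 peaks of the 6qB2.3 clusters, chromosome 6 had a ratio of 1.12 (1.004 to 1.24). The number given by its length was left at 314.1 for this. The total length used includes chromosome Y, which held 0 peaks, and this raises the ratios of all other chromosomes and their bands somewhat. Ratios without Y were not computed, so whether this interval would still lie above 1 is not known. The lowest autosomes were 16 (0.655, 0.549 to 0.776) and 14 (0.657, 0.562 to 0.762). Chromosome X held 116 peaks against 358.8 (0.323, 0.267 to 0.388), and chromosome Y 0 against 192.4. The number of copies of each chromosome in these cells is not known here, and its part in these ratios was not tested.

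**Figure D5:**
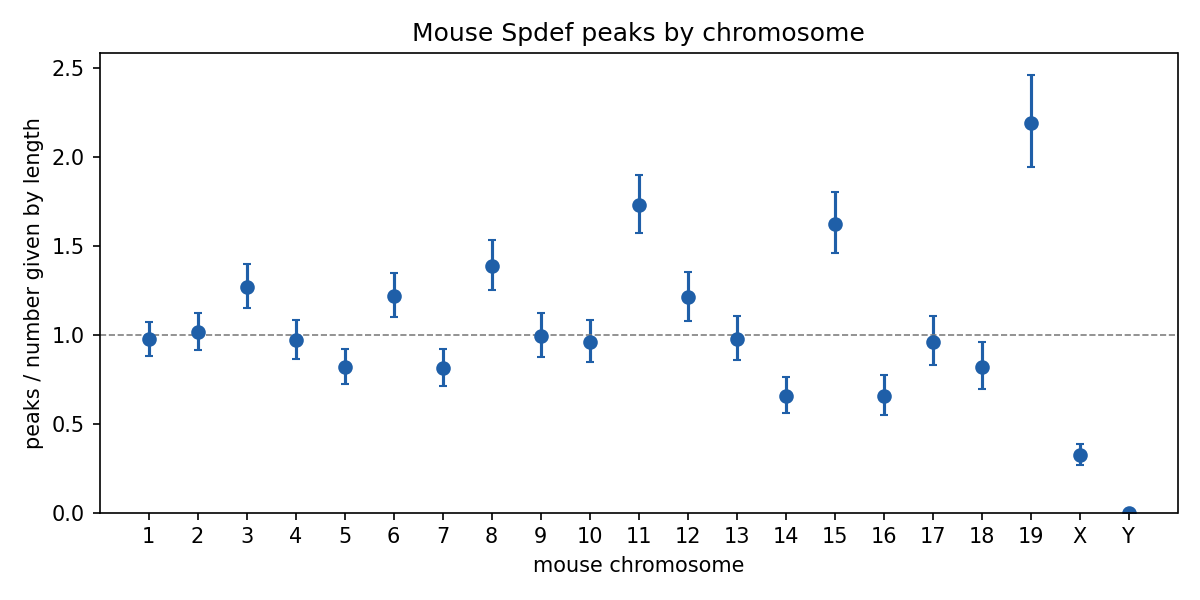
Mouse Spdef peaks on each chromosome divided by the number its length gives (total 5717 peaks). Points are ratios, lines exact 95% Poisson intervals and the dashed line marks a ratio of 1, with chromosomes 19 (2.19), 11 (1.73) and 15 (1.62) highest and X (0.323) lowest of those with peaks.

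As background, genes of the mucus programme and of ductal epithelium lie on chromosomes at both ends of this range. Spdef itself and the trefoil factor genes lie on mouse chromosome 17 (ratio 0.959, 0.827 to 1.10). The gel-forming mucin genes Muc6, Muc2, Muc5ac and Muc5b lie on chromosome 7 (0.810, 0.712 to 0.917). The gene of another secreted mucin, Muc19, is not among those placed here. The membrane mucins Muc4 and Muc13 lie on chromosome 16, which had the lowest autosomal ratio, and Muc1 on chromosome 3. Agr2, a disulfide isomerase needed for mucin folding, lies on chromosome 12. The simple epithelial keratins Krt7, Krt8 and Krt18 lie on chromosome 15 and Krt19 on chromosome 11, which are among the highest. These gene positions are general knowledge and not taken from the files. A chromosome holds very many genes, so its ratio says nothing about a peak at any of them.

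At the scale of 1 Mb, 1154 of 2716 windows held no peak (42.5%). The windows include chromosome Y, which held no peak, and the first 3 Mb of each chromosome, a gap in mm10. Both raise the share of empty windows. Windows with 10 or more peaks numbered 93 (3.42%), and they held 1224 peaks, or 21.4% of the list. The 328 fullest windows, 12.1% of all, held 50% of the peaks. The variance of the counts was 4.51 times their mean of 2.10.

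The fullest window was that of the 6qB2.3 clusters (chromosome 6, 47000001 to 48000000), with 35 peaks, 32 of them in clusters. The windows after it differed in how many of their peaks were in clusters. On chromosome 11 (69000001 to 70000000, in 11qB3) and chromosome 19 (5000001 to 6000000, in 19qA) 23 peaks each were found, of which 4 and 6 were in clusters. In 3qF2.1 (chromosome 3, 95000001 to 96000000) there were 21 peaks, 10 in clusters. In 11qE2 (116000001 to 117000000), which holds 2 of the 20 widest peaks, and in 3qF1 (90000001 to 91000000) there were 19 each, 6 and 10 of them in clusters. Windows on chromosome 15 (102000001 to 103000000) and chromosome 8 (126000001 to 127000000) held 18, with 8 and 11 in clusters. Those of chromosome 19 at 6000001 to 7000000 and of chromosome 8 at 84000001 to 85000000 and 94000001 to 95000000 held 17, with 3 in clusters in each. The number given by length is 2.10 per window. When each group of joined peaks counted once, the fullest window was that of chromosome 19 at 5000001, with 16.

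Among 403 cytogenetic bands, the densest by length was 15qF2, a band of 0.917 Mb with 20 peaks against 1.92 given by its length (ratio 10.4, 6.35 to 16.1). Distal chromosome 15 is where the mouse type II keratin genes are clustered, as background. The 20 peaks formed 6 separate places. At the start of the band lay the cluster of 7 named above, with peaks of 152 to 954 bp. After 639568 bp without a peak came a pair of 350 and 167 bp (101977052 to 101977861) and then 6 peaks within 33.7 kb (101995267 to 102028993). These 6 hold the ninth widest peak of the list, of 2931 bp (102015216 to 102018146), with a peak of 378 bp 260 bp before it. The other peaks of the 6 were 432 to 924 bp wide. Beyond them the band held a single peak of 726 bp, 3 peaks of 578 to 970 bp within 15.1 kb and a single peak of 401 bp. Counting each place once, the ratio of the band fell to 4.02.

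The ratios of the other dense bands rested on groups of neighbours to different degrees. In 6qB2.3, 50 peaks gave a ratio of 4.87 (3.62 to 6.42), which fell to 2.13 with joined peaks counted once and to 1.75 (1.04 to 2.77) without the 2 large clusters. Its place among the bands went from 4 to 34 with joined peaks counted once. In 9qA5.2, by contrast, 22 peaks stood in 16 places, and its ratio was 4.51 by peaks and 4.23 by places, the highest of all bands by that count. The values by peaks and by places were 5.10 and 4.06 in 3qF2.1 (47 peaks), 4.16 and 3.73 in 15qE1 (56 peaks) and 4.01 and 2.87 in 15qE2 (27 peaks). They were 3.72 and 3.35 in 19qC3 (73 peaks), 3.56 and 3.33 in 1qH2.2 (11 peaks), 4.52 and 3.64 in 18qB2 (16 peaks) and 5.08 and 3.93 in 2qC1.2, which had only 5 peaks.

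Sites were sparser in the darkest Giemsa bands, which are generally gene-poor and AT-rich. These bands make up 31.4% of the length of the chromosomes that hold peaks, and they held 1298 peaks (22.7%, 21.6 to 23.8), or 1.57 per Mb. Their length includes the first 3 Mb of each of these chromosomes, a gap in mm10, so densities given here for the darkest bands are somewhat too low. Unstained bands, generally gene-rich, make up 40.9% and held 2670 peaks (46.7%, 45.4 to 48.0), or 2.48 per Mb. The second darkest of the main classes had 2.52 peaks per Mb and the lightest stained 2.31, so density did not fall step by step with stain. Unstained bands had more peaks per Mb than the darkest on 17 of 19 autosomes, with a median ratio of 1.78. The exceptions were chromosome 12 (0.919) and chromosome 19 (0.393), where the darkest bands had 6.53 peaks per Mb and the unstained 2.56. Median widths did not rise or fall step by step with stain. They were 444.5 bp in the darkest bands, 422 bp in the second darkest, 418.5 bp in the lightest stained and 442.5 bp in unstained ones. In the human lists the darkest bands held 7.14% of SPDEF peaks (6.24 to 8.16) and 11.8% of GATA6 peaks, on 16.1% of the length.

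Mouse chromosomes carry the centromere at one end, and peaks pooled over all chromosomes became denser away from it. The first 3 Mb of each chromosome, which mm10 leaves as a gap, held 0 peaks. When the rest was divided into 5 equal parts, the part nearest the centromere held 996 peaks (17.4%, 16.5 to 18.4). The following parts held 1039, 1132 and 1172, and the last part 1378 (24.1%, 23.0 to 25.2). Median widths of the 5 parts lay between 425.5 and 453 bp. These are pooled values, and single chromosomes can differ. On chromosome 19, of 61.4 Mb, 109 of 282 peaks lay in 19qA, its first 16.7 Mb.

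Long stretches between neighbouring peaks had no site. On chromosomes that hold peaks, and leaving out their ends, the longest such stretch, of 17.04 Mb, ran from 14qD3 to 14qE2.1 (chromosome 14, 79482884 to 96517994), and a second on this chromosome, from 14qE2.3 to 14qE4, had 12.3 Mb. Of the 10 longest, 4 lay on chromosome X, with 15.1, 13.9, 11.02 and 9.29 Mb. The remaining 4 lay in 5qB3 to 5qC1 (10.9 Mb), 15qA1 to 15qA2 (10.3 Mb), 3qB to 3qC (9.63 Mb) and 2qE1 to 2qE2 (9.41 Mb). Chromosome 15 thus held one of the longest empty stretches near its centromere and the densest band near its other end. Whether sequence that cannot be mapped uniquely adds to these stretches was not tested.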

How the data were processed

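CUT&RUN used a CUTANA kit and library preparation a NEBNext Ultra II kit, per the labels' protocols. Tools named in the submitters' processing notes are MACS2 2.2.7.1, deepTools, SAMtools 1.14 and Bowtie2 2.4.4, with builds hg19 and mm10. How the 3 HA libraries were combined, and with which control and threshold, was not given in the sources used here. As the only values, the authors deposited peak positions in bp, so no test over libraries was possible and none was run. Assignment of the list to its group rests on the target in its name.

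Peaks on the mitochondrial genome and unplaced sequences were left out, and no other region was filtered out here. No peak overlapped another or ended past an mm10 chromosome (0 of each). Distances run from edge to edge, and clusters join gaps of at most 12.5 kb (12500 bp). Bands were assigned by peak midpoint, using circlize 0.4.16 and lengths from GenomeInfoDb 1.38.1 in R 4.3.3, with Python 3.11.15, numpy 2.4.6, pandas 2.3.3, scipy 1.17.1 and matplotlib 3.10.9. The number given by length uses all assembled chromosomes, Y included, and complete windows of 1 Mb. The joining of clusters, the search for neighbours, the assignment of bands and the interval of the median were tested on simulated data. The other calculations were not tested in this way.

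Named sites were the 20 widest, the 10 clusters with the most peaks, the 10 with the highest covered share among those of 5 or more, and the 10 windows (with ties) and 10 bands with the highest ratios. Members of 15qF2 and the neighbours of named sites were picked after their values were seen. The members and rules were chosen with earlier results of these data known. Planned results on genes, gene lists and motifs need mm10 genes or sequence and were not analysed here. A further part of the genotype is not reported here.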

Additional observations from a re-analysis of the deposited data

How the results depend on the processing

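No paired analysis was possible because the 3 numbered libraries share a single list. For the same reason no library could be left out. Alternatives on promoters, gene lists and motifs were not run, since they need mm10 genes or sequence. Of the 37 alternatives listed at the outset, 24 left the value within its counting interval, or a count within 1.5 times, as did 9 of 12 chosen after seeing the data. The chromosome with the highest ratio was 19 in all 4 settings, at 2.05 to 2.25, and the largest cluster was that of 17 peaks, or 19 with gaps of 50 kb joined. The median width of 436 bp became 450 bp without peaks under 100 bp and 726 bp in the wider 50%. The share of peaks within the joining distance of another, 38.04%, became 36.1% and 22.8% in these settings. The share of peaks in clusters, 14.7%, became 13.7% and 7.58%, and the number of clusters fell from 229 to 58 in the wider 50%, which has fewer peaks to join. With joining over 5, 25 and 50 kb the share was 8.06%, 23.1% and 34.4%, and the number was 131, 340 and 479. The densest window moved to chromosome 19, with 16, when joined peaks counted once. Counting bands by joined peaks and leaving out the 2 largest clusters were those chosen later. Depth is unknown, so a stretch without peaks cannot be called unbound.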
